A study of Mus musculus with 13 samples.

Results

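The glucocorticoid-responsive genes described here are 10 genes chosen by name: *Fkbp5*, *Tsc22d3*, *Sgk1*, *Zbtb16*, *Klf9*, *Ddit4*, *Cdkn1a*, *Sult1a1* and *Arrdc2*, which glucocorticoids are known to induce in various tissues, and *Nr3c1*, which encodes the glucocorticoid receptor. They were found in the count table by Ensembl identifier with the version dropped, and they are 10 of the 47643 genes listed there. All 10 passed the filter on low counts, as did 17285 genes in all. Each library came from the isolated neurovasculature of 1 male CD1 mouse aged 8 to 10 weeks, and 13 mice were sequenced. Sham-vehicle mice (n = 4) received no LPS, and the series describes the injection as PBS. LPS-vehicle mice (n = 5) received LPS from *Salmonella enterica* Typhimurium intraperitoneally at 3 mg/kg at 0, 6 and 24 h, with the vehicle of the compound (DMSO, Cremophor and saline). LPS-CPD-4645 mice (n = 4) received the same LPS and 10 mg/kg of CPD-4645 subcutaneously 30 min after each dose. That delay is the one in the labels, and the sources differ on it. CPD-4645 is a carbamate inhibitor of monoacylglycerol lipase (MAGL), the enzyme that hydrolyses the endocannabinoid 2-arachidonoylglycerol. All mice were euthanized at 28 h, and no group received CPD-4645 without LPS.

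Corticosterone, the main glucocorticoid of mice, is released by the adrenal gland when inflammation activates the hypothalamus and pituitary. It binds the glucocorticoid receptor, which is held in the cytoplasm by a chaperone complex and then moves to the nucleus, where it binds glucocorticoid response elements (GREs), palindromes of paired hexamers, and raises or lowers transcription. Several of the induced genes close the loop: FKBP5 lowers the affinity of the receptor for hormone, and TSC22D3 (GILZ) and ZBTB16 restrain inflammatory or growth programmes. In the brain these genes respond in endothelial cells, glia and neurons, and they are widely read as an index of the stress hormone. No hormone was measured in these samples, and several of the 10 genes also answer to other signals: *Cdkn1a* to p53, *Ddit4* to hypoxia and the integrated stress response, and *Sgk1* to osmotic stress and growth factors.

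The material was checked against markers of the cells it could hold, as sums over each marker list of CPM (read counts scaled to the library total), taken per kb of exon where lists are set against each other. The 7 endothelial markers summed to 120 to 202 CPM per kb in sham-vehicle, 149 to 328 in LPS-vehicle and 158 to 224 in LPS-CPD-4645 mice, and none was at 0. After LPS 2 of them rose and 2 fell, beside 4.68% and 0.995% of all tested genes. Between the LPS groups 0 changed by 2-fold, and 3 were lower at an adjusted p of at most 0.05 (edgeR), beside 16.4% of all tested genes. The 7 neuronal markers summed to 3353 to 3857, 2755 to 3102 and 2961 to 3880 CPM per kb, above the endothelial sum in every library. At an adjusted p of at most 0.05 (edgeR) with any fold, 1 of the 7 was lower after LPS, beside 8.86% of all tested genes. Between the LPS groups 2 of the 7 were higher, beside 14.1%, and none of these markers changed by 2-fold. Of these the tubulin gene *Tubb3*, named after its values were seen, had log2 fold changes of -0.96 and 0.92. The brains were not perfused. The 10 neutrophil markers summed to 3.65 to 11.2 CPM in sham-vehicle, 72.6 to 290 in LPS-vehicle and 7.94 to 28.5 in LPS-CPD-4645 mice. Of the 9 that could be tested, 8 rose after LPS, beside 4.68% of all tested genes, and all 9 fell under CPD-4645, beside 4.19%. The part of cell composition in the results below was not tested, and in bulk RNA fewer cells of a type and less RNA per cell cannot be told apart. Total counts ran from 7813559 (LPS-vehicle mouse 3) to 55133373 (LPS-vehicle mouse 2). The second shallowest library, that of LPS-CPD-4645 mouse 1, held 12548404.

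RefSeq promoter windows on GRCm38.p6 (250 bases before to 50 after a start) were held for 8 of the 10 genes, as 16 windows, and *Zbtb16* and *Nr3c1* had none. They were searched on both strands for the GRE palindrome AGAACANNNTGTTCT, for its core GNACANNNTGTNC, which lies within the palindrome, and for the hexamer AGAACA or its complement TGTTCT. The full palindrome was in 1 window, that of the internal *Sgk1* start whose upstream sequence is shown, against 3 of all 32851 windows (0.00913%). Its first base lay 189 bases before the start, at chr10:21993701-21993715, within introns of 5 of the 13 annotated *Sgk1* transcripts and in no exon. The hexamer was in windows of *Sgk1* (5 matches, among them the arms of the palindrome), *Sult1a1* (2 matches) and *Tsc22d3* (1 match), which are 3 of the 8 genes with windows, beside 21.3% of all genes with windows. The 250 bases before the start are given 5′ to 3′ for 1 window of each of these 3 genes, with matches in capitals, to show the letters of the receptor's site in their surroundings. The *Sgk1* window shown is the one with the full palindrome, and 2 of the 5 *Sgk1* matches lie in windows of other starts that are not shown.
Sgk1, chr10:21993640-21993889, plus strand: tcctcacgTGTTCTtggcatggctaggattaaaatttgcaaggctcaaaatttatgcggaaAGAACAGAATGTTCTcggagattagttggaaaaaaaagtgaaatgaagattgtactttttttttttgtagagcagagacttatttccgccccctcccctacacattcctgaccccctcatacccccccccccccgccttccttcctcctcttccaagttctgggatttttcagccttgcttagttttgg
Sult1a1, chr7:126676419-126676668, minus strand: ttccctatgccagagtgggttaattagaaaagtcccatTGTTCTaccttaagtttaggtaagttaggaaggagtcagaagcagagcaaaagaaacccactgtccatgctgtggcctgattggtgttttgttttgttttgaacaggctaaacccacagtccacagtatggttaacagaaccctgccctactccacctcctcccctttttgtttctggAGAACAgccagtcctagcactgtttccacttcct
Tsc22d3, chrX:140600523-140600772, minus strand: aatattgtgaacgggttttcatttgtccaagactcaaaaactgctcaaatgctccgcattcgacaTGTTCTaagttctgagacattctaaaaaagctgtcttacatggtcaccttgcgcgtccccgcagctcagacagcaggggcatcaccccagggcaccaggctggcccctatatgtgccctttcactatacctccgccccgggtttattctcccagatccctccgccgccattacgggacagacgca
The windows of *Fkbp5*, *Klf9*, *Ddit4*, *Cdkn1a* and *Arrdc2* held none of these letters. A match is a string of letters and not a site of binding, and these short windows leave out distant enhancers.

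Comparing LPS-vehicle with sham-vehicle mice asked how the genes stood 4 h after the last LPS dose. Of the 10 genes, 6 rose past the threshold and none fell: *Sult1a1*, *Cdkn1a*, *Arrdc2*, *Fkbp5*, *Sgk1* and *Ddit4*, by 3.18-fold to 7.24-fold. The threshold, here and throughout, is an adjusted p of at most 0.05 with at least a 2-fold change, in edgeR's quasi-likelihood test over all 17285 genes. It called 4.68% of all tested genes higher and 0.995% lower. The median log2 fold change of the 10 genes was 1.85, beside -0.00065 over all tested genes. The receptor gene *Nr3c1* was lower in every LPS-vehicle mouse, by less than 2-fold, while *Tsc22d3*, *Zbtb16* and *Klf9* overlapped between the groups. For 7 of the 10 genes LPS-vehicle and sham-vehicle mice were fully apart, beside 18.1% of all tested genes.

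**Figure D1:**
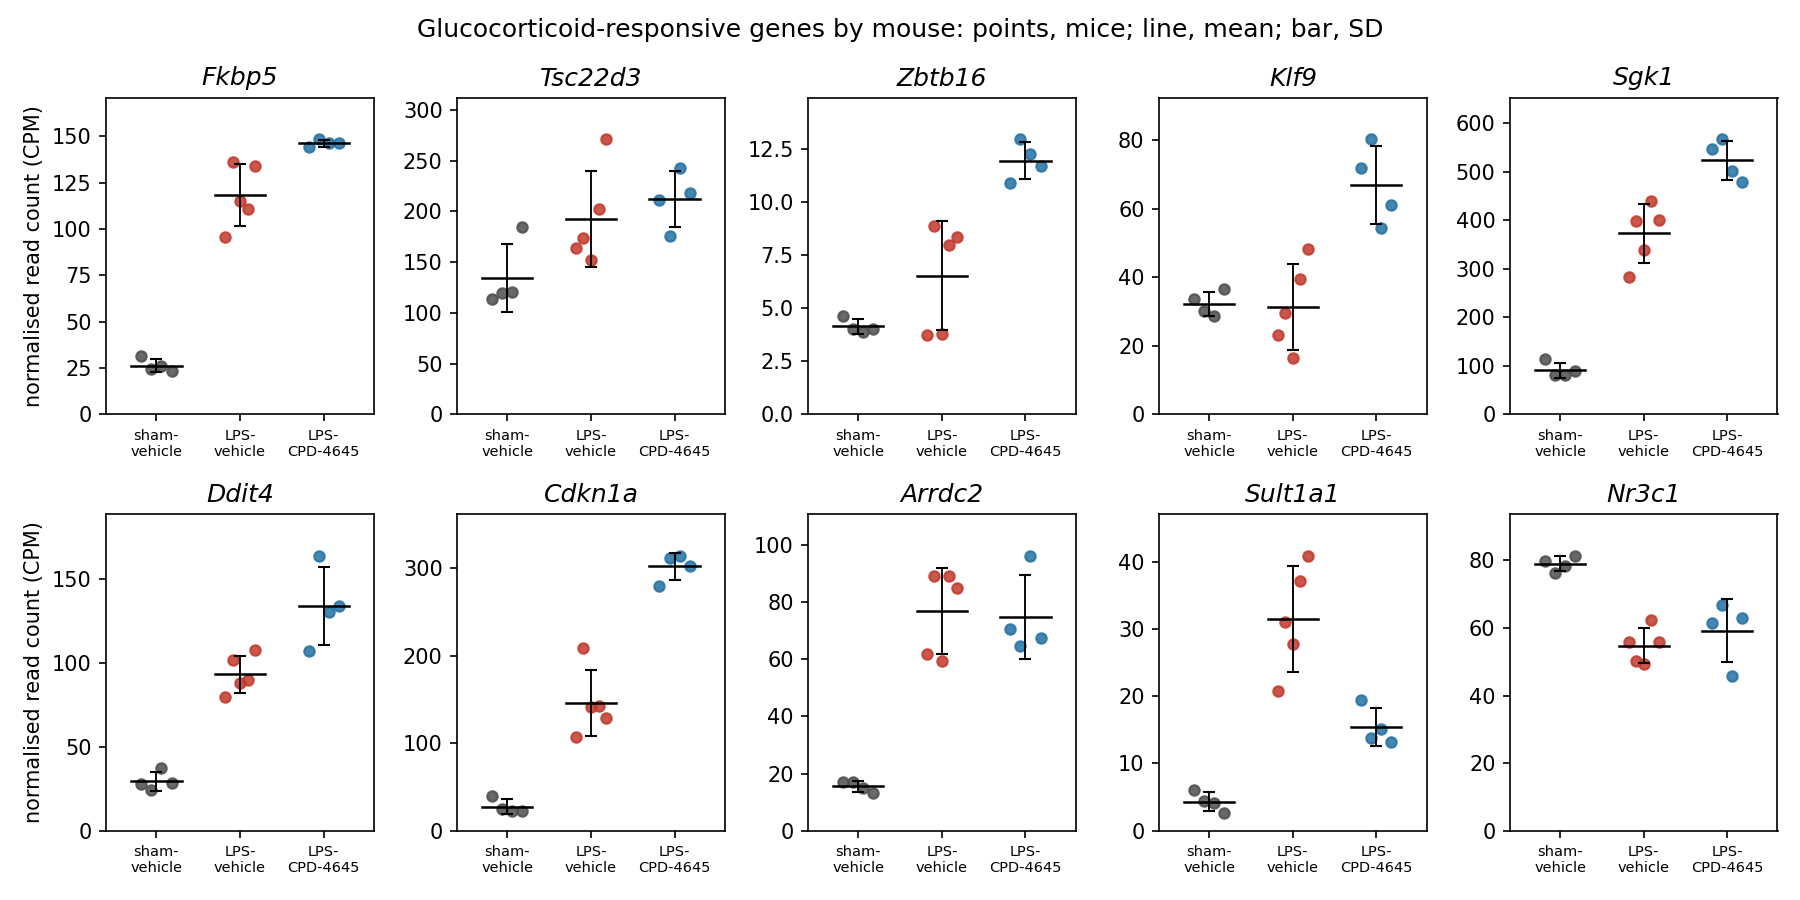
Normalised read count (CPM, vertical axis from 0, a scale for each gene) of the 10 genes in each of the 13 mice. Points are mice, the line is the group mean and the bar its SD; 6 genes separate sham-vehicle from LPS-vehicle upwards, *Nr3c1* separates downwards, and *Sult1a1* is the gene for which LPS-CPD-4645 mice lie wholly below LPS-vehicle mice.

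The clearest of the feedback genes was *Fkbp5* (chr17:28399094-28517527, minus strand, GENCODE M21 on GRCm38), which encodes a co-chaperone that lowers hormone binding by the receptor. It measured 31.5, 24.3, 26 and 23.2 CPM in the sham-vehicle mice, 95.6, 136, 115, 111 and 134 in the LPS-vehicle mice, and 144, 148, 146 and 147 in the LPS-CPD-4645 mice. The groups stood in that order without overlap, and the LPS-CPD-4645 mice lay within 5 CPM of each other. After LPS the log2 fold change was 2.17 ± 0.11 (SE, adjusted p = 1.97e-09), 4.50-fold. Between the LPS groups it was 0.31 ± 0.10 (SE, adjusted p = 0.031), 1.24-fold and under the 2-fold threshold, and the adjusted p reached 0.081 with single mice left out. A small RNA gene, *Gm22146*, lies within *Fkbp5* on the other strand.

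*Tsc22d3* (chrX:140539528-140600659, minus strand) encodes GILZ, an inhibitor of NF-κB and AP-1. Its sham-vehicle values were 113, 119, 120.1 and 185 CPM, its LPS-vehicle values 164, 174, 152, 202 and 271, and its LPS-CPD-4645 values 211, 176, 242 and 218. Sham-vehicle mouse 4 lay above 3 of the 5 LPS-vehicle mice, and the groups overlapped in all 3 comparisons. The log2 fold change was 0.52 ± 0.16 (SE, adjusted p = 0.031) after LPS, and the adjusted p reached 0.10 with single mice left out. It was 0.14 ± 0.16 (SE, adjusted p = 0.56) between the LPS groups and 0.66 ± 0.17 (SE, adjusted p = 0.00541) between LPS-CPD-4645 and sham-vehicle mice. *Tsc22d3* thus reached 2-fold in none of the comparisons.

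*Zbtb16* (chr9:48654297-48836222, minus strand) encodes PLZF, a zinc finger repressor that glucocorticoids induce strongly in several tissues. It was the scarcest of the 10, at 4.65, 4.02, 3.90 and 4.0 CPM in sham-vehicle, 3.74, 8.86, 3.78, 8.0 and 8.35 in LPS-vehicle and 10.9, 13, 12.3 and 11.7 in LPS-CPD-4645 mice. Among the LPS-vehicle mice, 1 and 3 lay below every sham-vehicle mouse and the other 3 above every sham-vehicle mouse, while all 4 LPS-CPD-4645 mice lay above both groups. The log2 fold change was 0.69 ± 0.24 (SE, adjusted p = 0.048) after LPS, where the adjusted p reached 0.12 with single mice left out. It was 0.84 ± 0.23 (SE, adjusted p = 0.00952) between the LPS groups, under 2-fold. Against sham-vehicle, *Zbtb16* rose in LPS-CPD-4645 mice by 1.53 ± 0.25 (SE, adjusted p = 1.11e-04) on the log2 scale, 2.88-fold.

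*Klf9* (chr19:23141226-23168134, plus strand) encodes a Krüppel-like factor induced by glucocorticoids and thyroid hormone in the brain, and the microRNA gene *Mir1192* lies within it on the same strand. It measured 33.6, 30.0, 28.6 and 36.4 CPM in sham-vehicle mice and 23.2, 29.6, 16.5, 39.5 and 48.1 in LPS-vehicle mice, so that the LPS-vehicle mice fell on both sides of the sham-vehicle range. The LPS-CPD-4645 values were 71.8, 80.2, 54.3 and 61.1, above every mouse of the other groups. After LPS the log2 fold change was -0.01 ± 0.21 (SE, adjusted p = 0.98), with a 95% confidence interval from -0.45 to 0.43, and its sign turned with single mice left out (-0.21 to 0.13). *Klf9* rose by 1.07 ± 0.21 (SE, adjusted p = 9.63e-04) between the LPS groups and by 1.05 ± 0.22 (SE, adjusted p = 0.00109) against sham-vehicle. Between the LPS groups the change was under 2-fold once mouse 1 (0.97) or 3 (0.93) of LPS-vehicle was left out, or mouse 2 (0.97) of LPS-CPD-4645, and against sham-vehicle it was under 2-fold without LPS-CPD-4645 mouse 2 (0.95).

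The kinase gene *Sgk1* (chr10:21882184-21999903, plus strand), whose product regulates ion channels and is a classical target of both corticosteroid receptors, measured 114, 80.8, 80.8 and 88.8 CPM in sham-vehicle mice. It stood at 284, 399, 339, 440.5 and 401 CPM in LPS-vehicle mice and at 546, 567, 502 and 479 in LPS-CPD-4645 mice. The 3 groups did not overlap. *Sgk1* rose after LPS by 2.03 ± 0.13 (SE, adjusted p = 1.28e-08), 4.09-fold. The LPS-CPD-4645 mice were higher still, by 0.49 ± 0.12 (SE, adjusted p = 0.00531), 1.40-fold and under the 2-fold threshold. This is the gene whose window, printed above, holds the full palindrome, but the count table does not say which start was used.

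*Ddit4* (chr10:59949669-59951834, minus strand) encodes REDD1, which restrains mTORC1 signalling. Its values were 27.5, 24.2, 37.4 and 28.3 CPM in sham-vehicle, 79.6, 102, 87.8, 89.8 and 108 in LPS-vehicle and 107, 164, 130.5 and 134 in LPS-CPD-4645 mice. LPS lifted every mouse above the sham-vehicle range, and the LPS groups overlapped only where mouse 1 of LPS-CPD-4645 lay below mouse 5 of LPS-vehicle. *Ddit4* rose after LPS by 1.67 ± 0.14 (SE, adjusted p = 1.09e-07), 3.18-fold. LPS-CPD-4645 mice were higher than LPS-vehicle mice by 0.52 ± 0.13 (SE, adjusted p = 0.00502), under 2-fold.

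*Cdkn1a* (chr17:29090976-29100727, plus strand) encodes p21, an inhibitor of cyclin-dependent kinases. It measured 39.6, 24.8, 22.2 and 22.8 CPM in sham-vehicle mice, 107, 209, 141, 143 and 129 in LPS-vehicle mice and 279.7, 312, 314 and 302 in LPS-CPD-4645 mice. Every LPS-CPD-4645 mouse lay above every LPS-vehicle mouse, and every LPS-vehicle mouse above every sham-vehicle mouse. *Cdkn1a* rose after LPS by 2.41 ± 0.18 (SE, adjusted p = 5.54e-08), and again between the LPS groups by 1.05 ± 0.17 (SE, adjusted p = 2.03e-04). Against sham-vehicle the rise was 3.46 ± 0.20 (SE, adjusted p = 2.24e-09), 11-fold and the highest of the 10 genes. Without LPS-vehicle mouse 1 the change between the LPS groups was 0.96, under 2-fold.

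*Arrdc2* (chr8:70835129-70839720, minus strand) encodes an arrestin-domain protein of the family of TXNIP. It measured 16.9, 17.2, 14.8 and 13.1 CPM in sham-vehicle, 62, 89.3, 59.4, 89.2 and 85.1 in LPS-vehicle and 70.8, 64.8, 96.5 and 67.5 in LPS-CPD-4645 mice. The LPS groups overlapped broadly, and both lay above all sham-vehicle mice. *Arrdc2* rose after LPS by 2.32 ± 0.15 (SE, adjusted p = 1.52e-08), 4.98-fold. Treatment with CPD-4645 left a difference of -0.05 ± 0.14 (SE, adjusted p = 0.83) on the log2 scale, with a 95% confidence interval from -0.34 to 0.25, and its sign turned when mouse 2 or 4 of either LPS group was left out (-0.18 to 0.02 over all mice).

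*Sult1a1* (chr7:126672865-126676432, minus strand) encodes a sulfotransferase for phenols and steroids. Its values were 6.02, 4.38, 4.14 and 2.67 CPM in sham-vehicle, 20.7, 31, 27.7, 37.1 and 40.9 in LPS-vehicle and 19.4, 13.8, 15.1 and 13.1 in LPS-CPD-4645 mice. The LPS-CPD-4645 mice lay between the other groups without overlap, a place that no other of the 10 genes took. *Sult1a1* rose after LPS by 2.86 ± 0.23 (SE, adjusted p = 8.04e-08), 7.24-fold, and was lower in LPS-CPD-4645 than in LPS-vehicle mice by -1.05 ± 0.21 (SE, adjusted p = 0.00108). The latter change was under 2-fold once mouse 4 (-0.98) or 5 (-0.94) of LPS-vehicle was left out, or mouse 4 (-0.97) of LPS-CPD-4645. In LPS-vehicle mice 1 to 5 the neutrophil markers, of which 8 of the 9 tested rose after LPS and all 9 fell under CPD-4645, summed to 92.3, 290, 115, 72.6 and 73.1 CPM, and the endothelial markers to 533, 638, 299, 645 and 662 CPM. The part of either in the *Sult1a1* result was not tested. *Sult1a1* overlaps *Sgf29* on the other strand, and which strand column was kept when the reads were counted is not stated, so reads of the pair cannot be told apart.

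*Nr3c1* (chr18:39410545-39519421, minus strand) encodes the receptor. It measured 79.9, 76.3, 78.4 and 81.5 CPM in sham-vehicle, 55.8, 50.3, 49.4, 62.4 and 55.9 in LPS-vehicle and 61.6, 66.7, 45.7 and 63 in LPS-CPD-4645 mice. All 9 mice given LPS lay below all 4 sham-vehicle mice, and the LPS groups overlapped. The log2 fold change was -0.53 ± 0.10 (SE, adjusted p = 9.88e-04) after LPS and -0.42 ± 0.11 (SE, adjusted p = 0.00474) in LPS-CPD-4645 against sham-vehicle mice, both under 2-fold. The 2 LPS groups differed by 0.11 ± 0.10 (SE, adjusted p = 0.43), with a 95% confidence interval from -0.10 to 0.32.

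**Figure D2:**
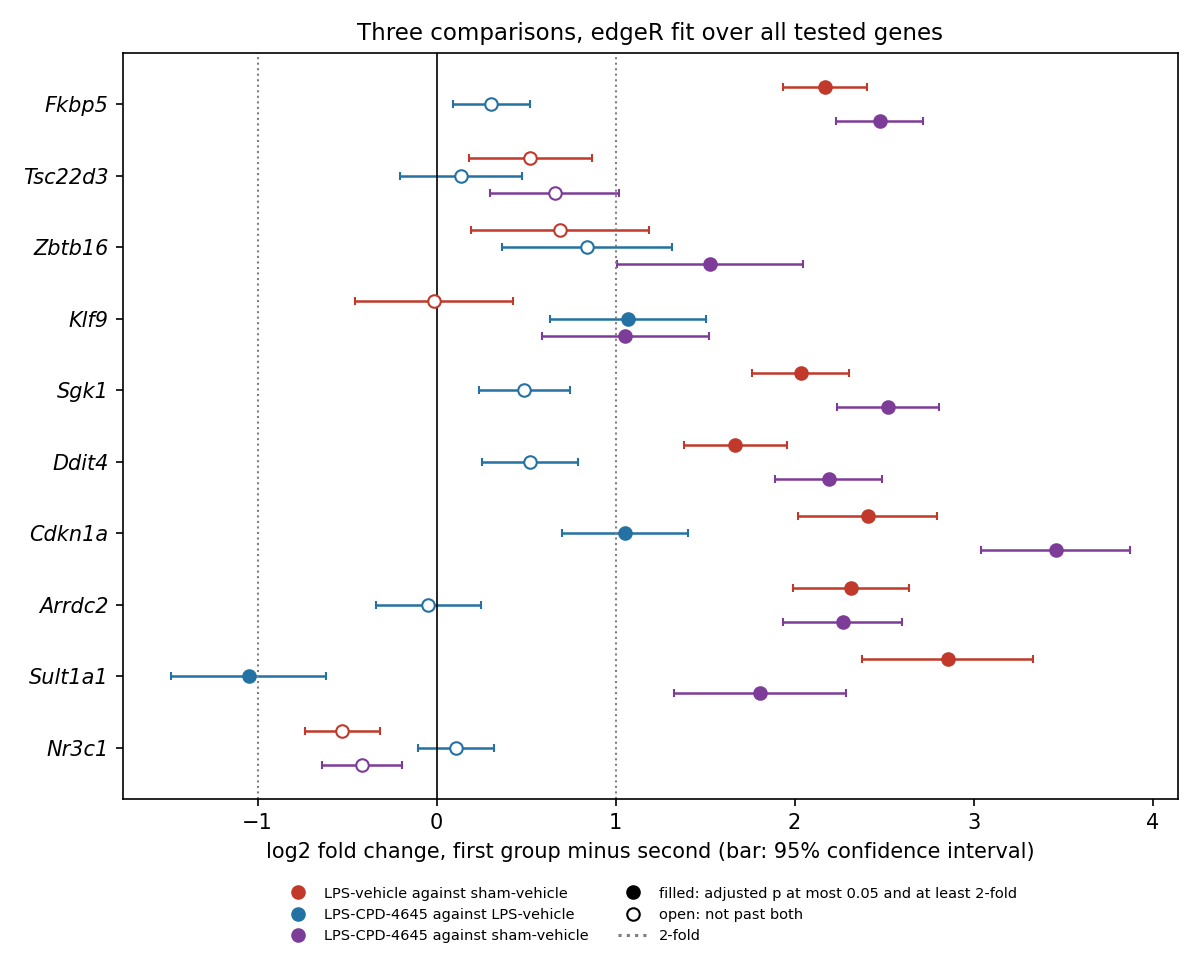
Log2 fold changes of the 10 genes (horizontal axis) in the 3 comparisons, with 95% confidence intervals from the edgeR fit. Filled points passed both the adjusted p and the 2-fold threshold (dotted lines), which 6 genes did after LPS, 3 between the LPS groups and 8 between LPS-CPD-4645 and sham-vehicle mice.

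The comparison of LPS-CPD-4645 with LPS-vehicle asked whether the MAGL inhibitor changed the standing of these genes after LPS. *Klf9* and *Cdkn1a* rose, *Sult1a1* fell, and the other 7 genes did not pass the threshold. Over all tested genes 1.7% were higher and 4.19% lower at this threshold. At an adjusted p of at most 0.05 with no demand on the fold, 6 of the 10 genes were higher (*Fkbp5*, *Sgk1*, *Zbtb16*, *Klf9*, *Ddit4* and *Cdkn1a*) and 1 was lower (*Sult1a1*), beside 14.1% and 16.4% of all tested genes. The median log2 fold change of the 10 genes was 0.40, and that of all tested genes -0.023. The LPS groups did not overlap for 6 of the 10, beside 23% of all tested genes. The count of 3 became 1 without LPS-vehicle mouse 1, when *Sult1a1* alone remained past 2-fold, and the 3 changes of 1.07, 1.05 and -1.05 on the log2 scale all stood close to the 2-fold line.

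Comparing LPS-CPD-4645 with sham-vehicle mice, 8 of the 10 genes rose and none fell, beside 6.11% and 4.98% of all tested genes. The 8 were *Cdkn1a* (11-fold), *Sgk1* (5.75-fold), *Fkbp5* (5.56-fold), *Arrdc2* (4.82-fold), *Ddit4* (4.57-fold), *Sult1a1* (3.50-fold), *Zbtb16* (2.88-fold) and *Klf9* (2.08-fold). Their groups did not overlap, nor did those of *Nr3c1*, which makes 9 of 10 genes beside 37.5% of all tested genes. The median log2 fold change of the 10 was 2.00, beside -0.014 over all tested genes. At an adjusted p of at most 0.05 with no demand on the fold, 9 genes were higher and 1 lower, beside 19.5% and 19.3% of all tested genes. The same reading of LPS-vehicle against sham-vehicle gave 8 higher and 1 lower, beside 11.1% and 8.86%. The 3 comparisons share mice, since each group enters a pair of them.

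The spread between mice, as the SD of log2 CPM, was highest in the LPS-vehicle group for 6 of the 10 genes, a difference between groups that was not tested. The share over all tested genes was not computed, so the count cannot be read as a trait of these genes. The LPS-vehicle group also holds the shallowest and the deepest library. For *Zbtb16* it was 0.63 among LPS-vehicle, 0.11 among sham-vehicle and 0.11 among LPS-CPD-4645 mice, and for *Klf9* 0.61, 0.16 and 0.25. *Fkbp5* had SDs of 0.21, 0.19 and 0.018 in the same order of groups. LPS-vehicle mice 1 and 3 were the lowest pair of the 5 for 7 of the 10 genes (*Tsc22d3*, *Sgk1*, *Zbtb16*, *Klf9*, *Ddit4*, *Sult1a1* and *Arrdc2*), a pairing singled out after the values were seen, and 14.2% of all tested genes had that lowest pair. The median of the 10 genes' log2 CPM above the sham-vehicle mean was 1.56 and 1.75 in those mice, 1.98, 1.86 and 2.02 in LPS-vehicle mice 2, 4 and 5, and 1.89 to 2.04 in the LPS-CPD-4645 mice. Mouse 3 had the shallowest library. It also had the lowest endothelial sum of the group (299 CPM, against 533 in mouse 1 and 638 to 662 in the other 3), and the part of this in the result was not tested.

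**Figure D3:**
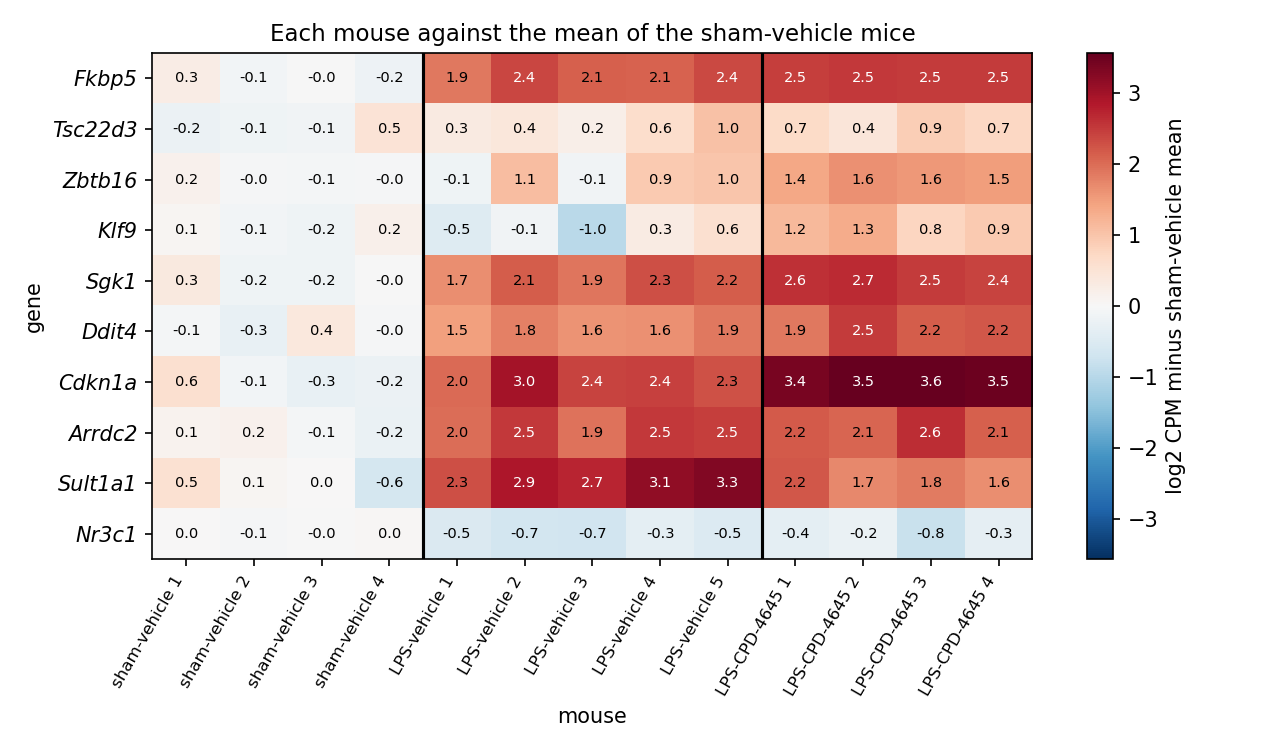
Log2 CPM of each gene (rows) in each of the 13 mice (columns) minus the sham-vehicle mean of that gene, printed in each cell and coloured from blue (lower) to red (higher). LPS-vehicle mice 1 and 3 are blue or pale for *Zbtb16* and *Klf9*, for which all LPS-CPD-4645 mice are red, and the *Nr3c1* row is blue in all 9 mice given LPS.

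Levels of different genes were compared per kb of exon, as CPM per kb. In sham-vehicle mice *Tsc22d3* stood first at 48.5 ± 12.2 (SD, n = 4), above *Sgk1* at 22.4 ± 3.85 and *Ddit4* at 16.7 ± 3.23, whose ranges overlapped. *Zbtb16* stood last at 0.784 ± 0.0645, below *Sult1a1* at 2.97 ± 0.947, which overlapped *Fkbp5* at 4.01 ± 0.562. In LPS-vehicle mice (n = 5) *Sgk1* stood first at 91.9 ± 15.2 and overlapped *Tsc22d3* at 69.5 ± 17.2, which overlapped *Cdkn1a* at 53.6 ± 14.0. In LPS-CPD-4645 mice (n = 4) *Sgk1* at 129 ± 9.85 and *Cdkn1a* at 111 ± 5.78 were apart from each other and above *Tsc22d3* at 76.5 ± 9.91. The range of *Cdkn1a* overlapped that of *Nr3c1*, the gene next above it, in sham-vehicle mice, and that of *Ddit4* (53.1 ± 6.38), next below it, in LPS-vehicle mice.

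Other genes known to be induced by glucocorticoids, 30 genes listed by name, were read beside the 10. After LPS, 17 rose and none fell, beside 4.68% and 0.995% of all tested genes, with a median log2 fold change of 1.27. The largest rises were of *Lcn2*, a siderophore-binding acute-phase protein (4.87 ± 0.49), *Cebpd*, a transcription factor of the acute phase (3.83 ± 0.26), *Il1r2*, the decoy receptor for IL-1 (3.42 ± 0.44), and the kinase gene *Map3k6* (3.17 ± 0.27, all SE). Under CPD-4645 2 rose, *Per1* (1.35 ± 0.09) and *Map3k6* (1.10 ± 0.23), and *Il1r2* fell by 1.31 ± 0.39 on the log2 scale, beside 1.7% and 4.19% of all tested genes, with a median over the 30 of 0.18. *Map3k6* was under 2-fold (0.98) without the 2 shallowest libraries. *Il1r2* did not pass with mouse 4 of LPS-vehicle (-1.04) or mouse 2 of LPS-CPD-4645 (-1.16) left out. Between LPS-CPD-4645 and sham-vehicle mice 19 rose and none fell, beside 6.11% and 4.98%, with a median of 1.68, led by *Lcn2* (5.02), *Map3k6* (4.27), the metallothionein gene *Mt2* (3.71) and *Cebpd* (3.14). Many of the 30 also answer to cytokines, and the list does not separate the hormone from them.

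The clock gene *Per1*, which glucocorticoids induce through promoter GREs, measured 54.2 ± 5.32 CPM in sham-vehicle (n = 4), 89.8 ± 8.93 in LPS-vehicle (n = 5) and 228 ± 20.5 in LPS-CPD-4645 mice (n = 4). It was 0.73 ± 0.09 higher (log2, SE, edgeR adjusted p = 1.85e-05) after LPS, under 2-fold, and rose past the threshold between the LPS groups (adjusted p = 1.38e-07). The 2 promoter windows of *Per1* searched here held neither the palindrome, nor its core, nor the hexamer. *Dusp1*, the phosphatase of MAP kinases, was at 0.79 ± 0.13 after LPS and 0.16 ± 0.13 between the LPS groups, under 2-fold in both. Of the 30 genes, 25 had RefSeq windows, and *Mt1*, *Fam107a*, *Map3k6* and *Txnip* held the core palindrome, as did 0.537% of all genes with windows. The matches are shown in capitals with 10 bases on each side, since they are the counterparts of the *Sgk1* palindrome among the genes listed. All 4 genes rose after LPS, by 2.43, 1.73, 3.17 and 1.83 on the log2 scale, beside 15 of the 25 genes with windows. Between the LPS groups *Map3k6* alone of them passed the threshold, while *Mt1* (0.60), *Fam107a* (-0.36) and *Txnip* (0.65) did not. Of the 25 genes with windows 2 rose and 1 fell there.
Mt1, chr8:94178995-94179007, plus strand: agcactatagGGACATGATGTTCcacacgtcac
Fam107a, chr14:8309885-8309897, minus strand: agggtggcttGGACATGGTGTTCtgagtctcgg
Map3k6, chr4:133240637-133240649, plus strand: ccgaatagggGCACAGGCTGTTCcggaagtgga
Txnip, chr3:96557785-96557797, plus strand: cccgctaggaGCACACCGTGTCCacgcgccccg

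**Figure D4:**
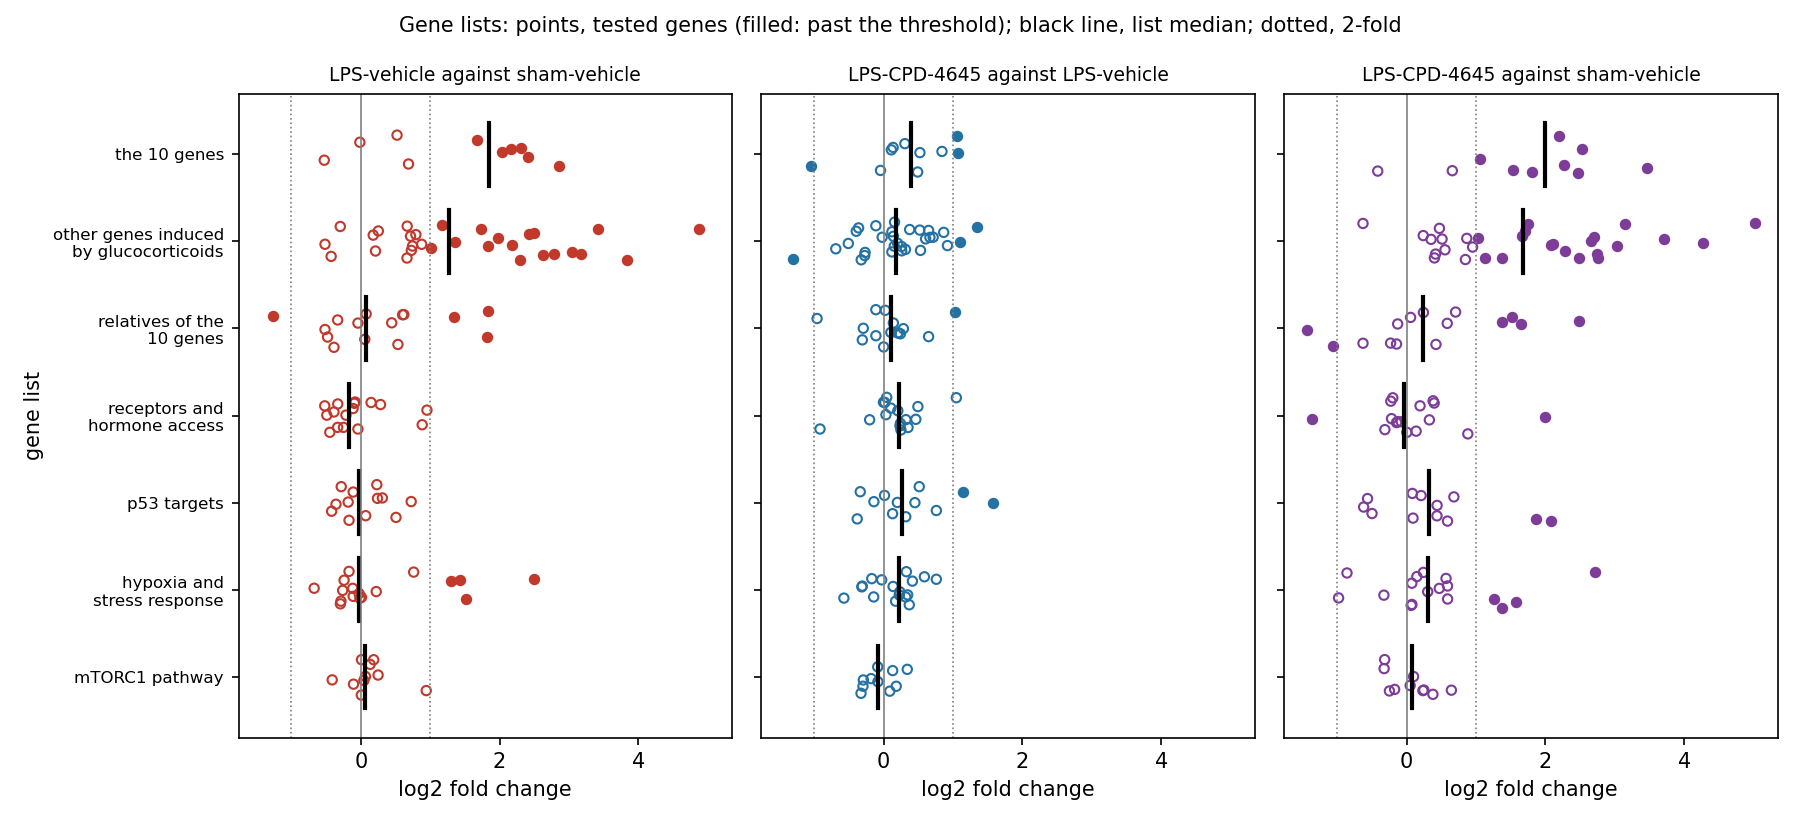
Log2 fold changes (horizontal axis) of the tested genes of each list (rows) in the 3 comparisons (panels); filled points passed the threshold and the black line is the list median. The 10 genes and the other induced genes have medians of 1.85 and 1.27 after LPS. The receptor, p53 and mTORC1 lists have medians of -0.16, -0.019 and 0.057, with 0 genes past the threshold. The relatives have a median of 0.078, with 3 genes higher and 1 lower past the threshold. The hypoxia and stress list has a median of -0.024, with 4 higher.

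Genes that set receptor function and hormone access (17 listed, 16 tested: the mineralocorticoid receptor, hormone-activating enzymes, chaperones, transporters and cofactors) gave 0 calls by edgeR after LPS and 0 between the LPS groups. DESeq2 also gave 0 in both, limma-voom gave 0 and 2, and 10 and 8 genes had an unadjusted p under 0.05, beside 32.2% and 41.3% of all tested genes. By edgeR 1 passed after LPS without mouse 2 of sham-vehicle or mouse 1 of LPS-vehicle. Between the LPS groups 1 was higher without mouse 4 of sham-vehicle, and 1 was lower without mouse 3 of LPS-vehicle or mouse 1 of LPS-CPD-4645. *Nr3c2*, the mineralocorticoid receptor, had log2 fold changes of -0.33, 0.20 and -0.13 in the 3 comparisons in the order above, and *Hsd11b1*, which regenerates active hormone, of 0.15, 0.25 and 0.40. At an adjusted p of at most 0.05 with no demand on the fold, 4 were lower and 2 higher after LPS, beside 8.86% and 11.1% of all tested genes, and 5 were higher and 1 lower between the LPS groups, beside 14.1% and 16.4%. In LPS-CPD-4645 against sham-vehicle mice *Abcb1b* rose by 2.00 ± 0.49 and *Abcb1a* fell by 1.36 ± 0.23, 1 each of the 16 tested, which is near the 6.11% and 4.98% of all tested genes. They are paralogues that both encode P-glycoprotein, the efflux pump of the blood-brain barrier.

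Relatives of the 10 genes by family were also read, 19 listed and 15 tested. After LPS *Txnip* (1.83 ± 0.14), *Sgk3* (1.82 ± 0.15) and *Tsc22d4* (1.34 ± 0.12) rose and *Sgk2* fell by 1.27 ± 0.26 on the log2 scale, beside 4.68% of all tested genes higher and 0.995% lower, so that *Sgk3* moved with *Sgk1* while *Sgk2* moved the other way. Under CPD-4645 *Arrdc4* rose (1.03 ± 0.13), 1 of the 15 beside 1.7% of all tested genes, where *Arrdc2* had -0.05. The *Arrdc4* change was under 2-fold with LPS-vehicle mouse 4 (0.96) or 5 (0.97) left out, and 2 relatives passed with mouse 1 or 2 of LPS-vehicle, or mouse 1 of LPS-CPD-4645, left out. In LPS-CPD-4645 against sham-vehicle mice 4 rose, led by *Txnip* (2.48) and *Arrdc4* (1.65), and 2 fell, with *Ddit4l*, the homologue of *Ddit4*, lowest at -1.44, beside 6.11% and 4.98% of all tested genes. *Sult1b1* and *Sult1d1* had no read in any library.

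Targets of p53 were listed because *Cdkn1a* is the best known of them. Of the other 12 tested, 0 passed after LPS by edgeR, limma-voom or DESeq2, and 5 had an unadjusted p under 0.05 (32.2% of all tested genes did), while *Cdkn1a* rose 5.31-fold. The list does not hold every known target of p53, so this count is for the listed genes alone. The part of p53 in the *Cdkn1a* result was not tested. Between the LPS groups *Gtse1* (1.58 ± 0.39) and *Trp53inp1* (1.14 ± 0.15) rose, beside 1.7% of all tested genes, and the other 10 did not pass. *Mdm2*, the p53 ligase, had log2 fold changes of 0.31, 0.13 and 0.44 in the 3 comparisons, and *Ccng1* of -0.18, -0.38 and -0.56. At an adjusted p of at most 0.05 with no demand on the fold, 7 of the 12 were higher and 1 was lower between the LPS groups, beside 14.1% and 16.4% of all tested genes. *Gtse1* was measured at 0.726 ± 0.254 CPM in LPS-vehicle (n = 5) and 2.06 ± 0.787 in LPS-CPD-4645 mice (n = 4), a level near the filter.

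The genes most like *Fkbp5* and *Cdkn1a* over the 13 mice were sought among the 11930 genes whose mean reached 5 CPM, by the root mean square difference of log2 CPM after subtracting each gene's sham-vehicle mean. The 5 most like *Fkbp5* were *Txnip* (0.28), *Pdk4* (0.31), *Setdb2* (0.31), *Pmaip1* (0.36) and *Ifitm2* (0.37). *Txnip* and *Pdk4* are on the list of other induced genes, while *Setdb2*, *Pmaip1* and *Ifitm2* are on none of the lists. The 5 most like *Cdkn1a* were *Mt1* (0.38), *Serpina3n* (0.40), *Serpina3e-ps* (0.46), *Tap1* (0.47) and *Endou* (0.48). Of these *Mt1* is on the list of other induced genes, and the rest are on none of the lists. *Serpina3n*, *Serpina3e-ps* and *Ifitm2* belong to families of close copies, so their counts are uncertain. The measure is of likeness in this small set of mice, which share their groups.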

How the data were processed

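RNA from isolated neurovasculature of 13 mice was sequenced as 75 bp single-end reads. The authors aligned reads to mm10 with STAR 2.5.2a, after bcl2fastq 2.15.0.4 (versions per the labels), used GENCODE M9 (basic) to count reads for each gene, and deposited these counts as whole numbers without normalization. The strand column kept is not stated. GENCODE M21 (GRCm38) gave symbols for 47224 of 47643 genes, positions and exon lengths, and RefSeq GRCm38.p6 gave promoter sequences.

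Genes were filtered with filterByExpr (minimum count 10, minimum total 15), leaving 17285 of 27934 genes with any count. TMM factors ran from 0.908 to 1.08. A quasi-likelihood model of the 3 groups was fitted to all 13 mice with edgeR 4.0.16 in R 4.3.3 and tested on simulated data. Adjusted p values are Benjamini-Hochberg values from edgeR over all tested genes, and SEs and intervals come from that fit. CPM used TMM-scaled totals, and log2 CPM a prior count of 2. Figures used Python 3.11.15 and matplotlib 3.10.9. No 2 libraries agreed within sampling noise: over 22 pairs of replicates the squared difference was 9.50 to 58.9 times the counting variance per gene. Each library is 1 mouse, so p values measure the spread between mice. Depth was 7813559 to 55133373 counts.

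The 10 genes and all gene lists were chosen with earlier results of these data known, and the lists were written from general knowledge, with a few genes on 2 lists. Named genes were all 10 members; from each list up to 4 genes past the threshold with the largest change per comparison; and *Nr3c2*, *Hsd11b1*, *Per1*, *Dusp1*, *Mdm2* and *Ccng1*. Genes with a core palindrome were named after their values were seen. Marker lists covered endothelial cells, pericytes and smooth muscle, astrocytes, microglia, neurons, oligodendrocytes, neutrophils, monocytes and macrophages, lymphocytes, platelets, erythrocytes, choroid plexus and fibroblasts. The study's own test, limma-voom (limma 3.58.1), was run as an alternative, as were DESeq2 1.42.0, voomWithQualityWeights, DESeq2's size factors, a mean count of at least 50, glmTreat against 2-fold, no low-count filter, adjusted p alone, a replicate block, only the groups compared, each mouse left out, and the 2 shallowest libraries left out.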

Additional observations from a re-analysis of the deposited data

Results flagged for a closer look

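Each of the 10 genes was examined in each group for a mouse far from the rest, by the gap to its nearest neighbour as a share of the group's range (Dixon's criterion at the 95% level). Of the 30 sets examined, 3 were singled out, all among sham-vehicle mice, where chance alone singles out about 1 in 20. *Tsc22d3* measured 185 CPM in sham-vehicle mouse 4, while the other sham-vehicle mice measured 113 to 120 CPM. *Cdkn1a* measured 39.6 CPM in sham-vehicle mouse 1, while the others measured 22.2 to 24.8 CPM. *Zbtb16* measured 4.65 CPM in sham-vehicle mouse 1, while the others measured 3.90 to 4.02 CPM. Sham-vehicle mouse 1 was also the highest of its group for *Fkbp5* (31.5 CPM), *Sgk1* (114 CPM) and *Sult1a1* (6.0 CPM), though these did not meet the criterion. The part of these mice in the comparisons was measured by leaving each out: *Cdkn1a* passed the threshold after LPS in every such fit, and *Tsc22d3* and *Zbtb16* stayed under 2-fold after LPS in every such fit.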

How the results depend on the processing

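The 10 genes gave 30 log2 fold changes, each recomputed under 24 settings. Of these 720 values, 684 kept their direction and side of the threshold, 15 fell short of it, 9 passed only because adjusted p alone was asked for, and 12 changed sign. The 12 were *Klf9* after LPS and *Arrdc2* between the LPS groups, both near 0. *Klf9* was 0.00089 by limma-voom, 0.0055 by voomWithQualityWeights, 0.126 without the 2 shallowest libraries and -0.21 to 0.13 with single mice left out. *Arrdc2* was -0.18 to 0.018 with single mice left out. The count of 3 genes between the LPS groups was 0 by glmTreat, which tests against 2-fold, and 7 by adjusted p alone, and 1 to 3 with single mice left out. It became 2 without the 2 shallowest libraries, where *Klf9* was 0.89. The count after LPS was 6 in every fit with a mouse left out, and that of LPS-CPD-4645 against sham-vehicle was 7 to 8. Deviations from the group means correlated weakly between same-numbered mice (12 pairs, r -0.035 to 0.11), beside -0.14 to 0.12 for other pairs of mice from different groups. Such weak correlations cannot decide whether the replicate numbers mark a pairing or a batch. With a replicate block *Sult1a1* between the LPS groups was -0.96, under 2-fold, and the counts were 6, 2 and 8. In the same fit *Arrdc4* was 0.98 between the LPS groups, under 2-fold, so that 0 relatives passed there. *Il1r2* was -1.14 between the LPS groups (edgeR adjusted p = 0.052) and did not pass. Of the lists, the hypoxia and stress list after LPS went from 4 to 1 by glmTreat and 7 by adjusted p alone, the other induced genes between the LPS groups from 3 to 1 and 15, and the p53 list there from 2 to 0 and 8. All genes past the threshold numbered 981, 1019 and 1917, or 439, 65 and 561 by glmTreat and 3446, 5271 and 6713 by adjusted p alone, and the second was 632 with a mean count of at least 50. DESeq2's size factors moved the median of all genes by under 0.01. Depth limits genes near the filter, such as *Gtse1*.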

Other observations

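*Ddit4* answers to hypoxia and the integrated stress response as well as to glucocorticoids, and 17 such genes were read beside it. After LPS 4 rose and none fell, beside 4.68% and 0.995% of all tested genes: *Atf3* (log2 fold change 2.49 ± 0.39), *Hk2* (1.52 ± 0.27), *Adm* (1.44 ± 0.21) and *Trib3* (1.29 ± 0.29, all SE, edgeR). The list's median was -0.024 after LPS, where *Ddit4* had 1.67. Between the LPS groups 0 of the 17 passed the threshold by edgeR, limma-voom or DESeq2, 10 had an unadjusted p under 0.05 (41.3% of all tested genes did), and 6 were higher and 2 lower at an adjusted p of at most 0.05, beside 14.1% and 16.4% of all tested genes. In LPS-CPD-4645 against sham-vehicle mice the same 4 genes rose, where 6.11% of all tested genes did, *Atf3* by 2.72, *Adm* by 1.57, *Hk2* by 1.37 and *Trib3* by 1.27.

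The product of *Ddit4* restrains mTORC1, and 0 of the 10 tested genes of that pathway passed the threshold in any of the 3 comparisons by edgeR, while 4, 4 and 6 had an unadjusted p under 0.05, beside 32.2%, 41.3% and 47.5% of all tested genes. Their medians were 0.057 after LPS, -0.085 between the LPS groups and 0.076 in LPS-CPD-4645 against sham-vehicle mice. After LPS limma-voom passed 1 of them, DESeq2 passed 0, and edgeR passed 1 without mouse 2 of sham-vehicle or mouse 3 of LPS-vehicle. Limma-voom and DESeq2 passed 0 in the other comparisons. These are transcript levels and say nothing of the activity of the kinase.

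Other marker lists are given by their calls or sums, and the sums were not tested. After LPS 4 of the 5 monocyte and macrophage markers tested rose, beside 4.68% of all tested genes, and 2 fell between the LPS groups, beside 4.19%, with sums of 11.5 to 16.9 CPM in sham-vehicle, 34.8 to 93.5 in LPS-vehicle and 12.2 to 22.4 in LPS-CPD-4645 mice. Astrocyte markers summed to 1384 to 1840 CPM, 1991 to 2532 and 1814 to 2329 in the same order, microglial markers to 172 to 231, 125 to 226 and 120 to 147, and pericyte and smooth muscle markers to 192 to 281, 155 to 232 and 170 to 230. After LPS 1 of 6 astrocyte markers rose past the threshold, beside 4.68% of all tested genes. At that threshold 1 of 6 microglial and 3 of 8 pericyte and smooth muscle markers fell, beside 0.995%. Between the LPS groups 1 microglial and 1 pericyte and smooth muscle marker fell, beside 4.19%. Oligodendrocyte markers summed to 4497 to 6428, 3193 to 4219 and 3718 to 4801 CPM, fibroblast markers to 110.5 to 125, 112 to 142 and 101 to 147, and choroid plexus markers to 344 to 717, 172 to 379 and 244 to 785. Erythrocyte markers summed to 468 to 958, 239 to 461 and 325 to 706 CPM, platelet markers to 12.4 to 17.7, 11.7 to 17.0 and 14.9 to 21.5, and lymphocyte markers to 3.51 to 4.94, 2.89 to 4.66 and 2.48 to 4.93. Most of the lymphocyte sum was *Cd4* (means of 3.30, 3.63 and 3.27 CPM), and *Cd3e*, *Cd3g* and *Cd8a* were at 0 in all LPS-CPD-4645 mice.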
